A study of Mus musculus with 6 samples.

Results

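Purinergic and adenosine receptor genes were followed in mouse bone marrow-derived macrophages (BMDMs) given dopamine (DA) before a Toll-like receptor 2 stimulus. The set holds 8 genes chosen by symbol: the ATP-gated channels P2rx4 and P2rx7, the nucleotide receptors P2ry2, P2ry6 and P2ry14, the adenosine receptors Adora2a and Adora2b, and the ATP-degrading ectoenzyme gene Entpd1. All 8 were listed in each of the 6 libraries, out of 17951 genes listed in at least 1 library, and all 8 passed the filter on low counts, which left 12390 genes tested.

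Marrow of wild-type C57BL/6 mice aged 8 weeks was cultured for 4 to 6 days with 10% serum (FBS) and 10% L929 cell supernatant, which supplies the growth factor that turns marrow cells into macrophages. Every culture then had Pam3CSK4, a synthetic bacterial-type lipopeptide recognised by Toll-like receptor 2, for 6 h. In 3 libraries the cells had been given DA for 2 h before the stimulus, and the other 3 had Pam3CSK4 alone. No unstimulated cells and no cells with DA alone were analysed here, so levels without DA are stimulated levels. The dose of DA is not given in the sources used here. Whether replicates are separate mice or cultures is not stated in the labels, and p-values therefore reflect only how far these libraries scatter, which may be technical.

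Cells release ATP and other nucleotides when they are stressed, damaged or activated, and neighbouring cells read them through P2X channels and P2Y receptors. Ectonucleotidases on the cell surface then strip the phosphates, CD39 (the product of Entpd1) taking ATP and ADP to AMP and CD73 (the product of Nt5e) taking AMP to adenosine, which acts on adenosine receptors. In macrophages ATP acting on P2X7 is a classical trigger of the NLRP3 inflammasome, whereas adenosine acting on the receptor encoded by Adora2a raises cyclic AMP and dampens the release of inflammatory cytokines.

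With DA, Adora2a fell 5.73-fold, P2rx7 fell 1.34-fold and Entpd1 rose 1.72-fold. The other 5 members, among them the 4 most abundant with DA (P2ry6, P2rx4, P2ry2 and Adora2b), did not pass the test. So 3 of the 8 members were called by edgeR's quasi-likelihood test at an adjusted p under 0.05, 1 higher and 2 lower, where 64.4% of all genes tested were called, 32.6% higher and 31.8% lower. Adora2a was the member called with a change of at least 2-fold. Of all genes tested, 14.8% were called with such a change, 7.48% lower and 7.34% higher, and 35.6% were not called. The 2 groups did not overlap in CPM (counts per 1000000, with TMM-scaled library sizes) for 4 of the 8 members, P2rx7, P2ry14, Adora2a and Entpd1, against 68.7% of all genes tested. The median log2 fold change was -0.05 over the 8 members and 0.02 over all genes tested.

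**Figure D1:**
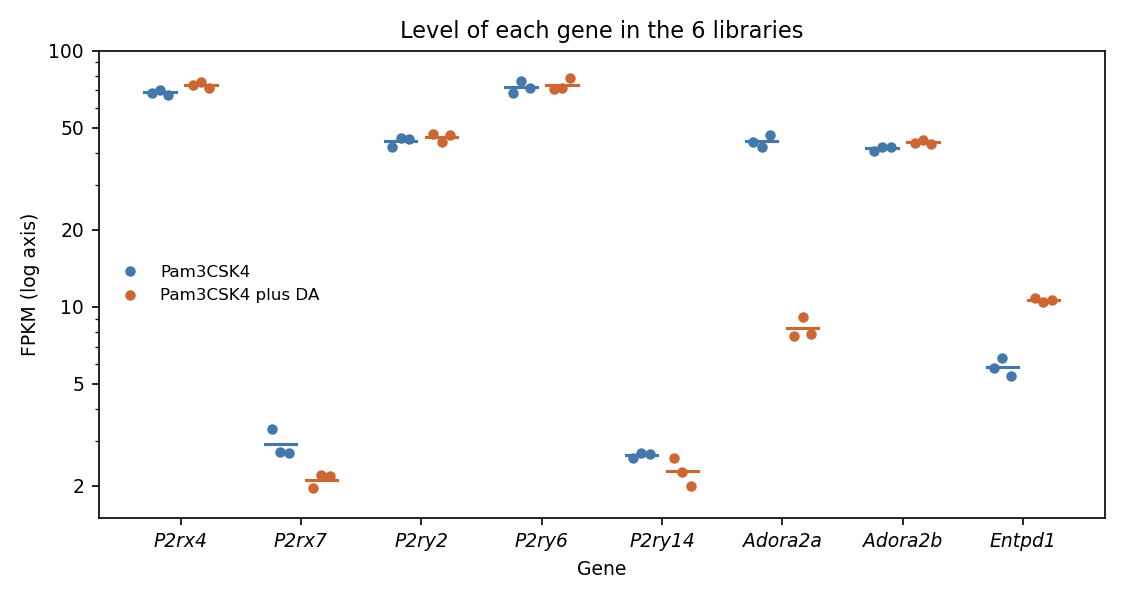
FPKM (fragments scaled by transcript length and library depth, log axis) of each of the 8 genes, with 1 point per library and a line at the mean of the 3 libraries of a group. Adora2a lies between 42.2 and 46.8 with Pam3CSK4 and between 7.69 and 9.16 with DA, while P2rx4, P2ry2, P2ry6 and Adora2b stay near their level.

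The FPKM values, which the authors scaled by transcript length, allow the genes to be ranked. With Pam3CSK4 alone, P2ry6 (mean 72.0 FPKM) and P2rx4 (68.7 FPKM) stood highest and their ranges overlapped. Adora2a and P2ry2 followed, both with a mean of 44.3 FPKM and overlapping ranges, then Adora2b at 41.6 FPKM. Entpd1 was far lower at 5.82 FPKM, and P2rx7 (2.91 FPKM) and P2ry14 (2.63 FPKM) closed the order with overlapping ranges. With DA the order changed at 1 place of weight: Adora2a, at 8.24 FPKM, dropped below P2ry2 (46.1 FPKM), Adora2b (43.9 FPKM) and Entpd1 (10.6 FPKM). With DA the ranges of P2ry6 and P2rx4 again overlapped, as did those of P2ry2 and Adora2b and those of P2ry14 and P2rx7. Among all genes tested, Adora2a moved from the 86.5 percentile of FPKM to the 55.9 percentile, and Entpd1 from the 49.4 to the 61.7 percentile.

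P2rx4 and P2rx7 encode trimeric cation channels opened by ATP, the first at low and the second at high ATP concentrations. They lie next to each other on the plus strand of chromosome 5, P2rx7 at chr5:122643911-122691432 and P2rx4 at chr5:122707544-122729738 (GENCODE M21, GRCm38), with 16.1 kb between them. The 250 bases before the RefSeq start of P2rx4 and before the first of 2 RefSeq starts of P2rx7 (build GRCm38.p6) are shown because these neighbours differed in their change. Capitals mark matches, on either strand, to the AP-1 letters TGANTCA or to the letters TGACNNNGC bound by NRF2 with small MAF proteins. The P2rx7 stretch is chr5:122643677-122643926 and the P2rx4 stretch is chr5:122707294-122707543, both on the plus strand.
P2rx7: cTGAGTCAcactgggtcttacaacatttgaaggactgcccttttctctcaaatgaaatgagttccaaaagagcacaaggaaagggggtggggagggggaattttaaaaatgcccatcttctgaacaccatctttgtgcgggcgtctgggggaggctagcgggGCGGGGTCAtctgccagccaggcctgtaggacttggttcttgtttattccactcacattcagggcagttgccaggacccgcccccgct
P2rx4: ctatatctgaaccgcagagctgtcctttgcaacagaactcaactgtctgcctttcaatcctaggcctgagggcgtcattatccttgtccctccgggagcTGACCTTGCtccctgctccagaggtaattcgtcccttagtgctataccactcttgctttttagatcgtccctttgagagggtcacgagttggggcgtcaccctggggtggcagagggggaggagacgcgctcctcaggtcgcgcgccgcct

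P2rx7 had 239.3, 228 and 213.3 expected counts in the Pam3CSK4 libraries and 149, 197 and 195.2 in the DA libraries. Every DA library lay below every Pam3CSK4 library, and DA replicate 1 was the lowest. Its CPM of 10.95 ± 0.551 without DA compared with 8.16 ± 1.21 after DA (SD, n = 3). The log2 fold change was -0.42 (SE 0.11, edgeR adjusted p = 0.00372). Without DA replicate 1 the log2 fold change was -0.31 and edgeR's adjusted p was 0.0185.

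The P2rx7 FPKM was 3.34, 2.71 and 2.68 with Pam3CSK4 and 1.96, 2.2 and 2.19 with DA. The transcript length deposited for P2rx7, an average over its isoforms, ran from 3333 to 4136 bases between libraries, the widest range of the 8 genes (the longest was 1.24 times the shortest). The file lists 5 RefSeq transcripts for the gene, of 712, 1605, 1848, 2576 and 4936 bases in GENCODE, so the FPKM of P2rx7 moves with the isoform estimate while its counts do not.

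P2rx4 had an FPKM of 68.5, 70.2 and 67.4 with Pam3CSK4 and of 73.7, 75.5 and 71.6 with DA. Its groups did not overlap on the FPKM scale, with DA higher, but they overlapped in CPM (192.0 ± 3.26 with Pam3CSK4 and 193.3 ± 3.43 with DA, SD, n = 3). The log2 fold change was 0.01 with a 95% interval from -0.10 to 0.12 (edgeR adjusted p = 0.874). With upper-quartile factors P2rx4 was called higher, at a log2 fold change of 0.13 (edgeR adjusted p = 0.0442). Under these factors the median over all genes tested was 0.14 instead of 0.02, a shift of 0.11, and 5055 genes were called higher and 3138 lower, against 4043 and 3938 with TMM. P2rx4 lay close to the median gene under both.

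The P2rx7 to P2rx4 ratio of FPKM does not depend on library scaling, but it moves with the length estimate of P2rx7. That length was 3333, 3897 and 3687 bases with Pam3CSK4 and 3520, 4136 and 4086 bases with DA. The ratio was 0.0487, 0.0386 and 0.0398 with Pam3CSK4 and 0.0266, 0.0292 and 0.0306 with DA. The groups did not overlap, and the difference in log2 ratio was -0.55 (two-sided exact permutation p = 0.1, adjusted p = 0.15 over 3 ratios). With 3 libraries against 3, 0.1 is the smallest p that the 20 assignments can give. P2rx4 made up 95.3% ± 0.406 of the summed FPKM of the P2X genes with Pam3CSK4 and 96.4% ± 0.240 with DA (SD, n = 3).

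The other P2X genes were near the limit of detection. P2rx5 had 11 to 20 counts with Pam3CSK4 and 13 to 22 with DA, with overlapping groups (log2 fold change 0.14, edgeR adjusted p = 0.717). P2rx1 had 4 to 8 counts and 9 to 12 counts in the 2 groups, P2rx3 was listed in all 6 libraries, P2rx6 in 4 and P2rx2 in 1, and these 4 were removed by the filter on low counts.

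P2ry2 and P2ry6 encode G protein-coupled receptors, P2Y2 for ATP and UTP and P2Y6 for UDP. They lie 21.9 kb apart on the minus strand of chromosome 7, P2ry6 at chr7:100937630-100974649 and P2ry2 at chr7:100996568-101012866. P2ry6 had an FPKM of 68.3, 76.3 and 71.5 with Pam3CSK4 and of 71.2, 71.3 and 78.4 with DA. P2ry2 had 42.2, 45.7 and 45.1 FPKM with Pam3CSK4 and 47.2, 44.1 and 46.9 FPKM with DA. The groups overlapped for both genes. Their fold of DA over Pam3CSK4 was 0.976 for P2ry2 (95% interval 0.895 to 1.07, edgeR adjusted p = 0.625) and 0.961 for P2ry6 (95% interval 0.876 to 1.06, edgeR adjusted p = 0.442). The direction of both turned under upper-quartile factors and on the FPKM scale, at adjusted p-values above 0.05.

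The P2ry6 to P2ry2 ratio of FPKM lay between 1.59 and 1.67 with Pam3CSK4 and between 1.51 and 1.67 with DA. The groups overlapped, with a difference in log2 ratio of -0.02 (two-sided exact permutation p = 0.7, also 0.7 adjusted over 3 ratios).

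P2ry14, on chromosome 3 (chr3:59113855-59153618, minus strand), encodes the receptor for UDP-glucose and related nucleotide sugars. It had 94, 98 and 96 expected counts with Pam3CSK4 and 96, 86 and 74 with DA. In CPM the groups did not quite overlap, with 4.52 the lowest value with Pam3CSK4 and 4.36 the highest with DA, while in counts and in FPKM they overlapped. The log2 fold change of -0.26 (95% interval -0.54 to 0.01) did not pass the test (edgeR adjusted p = 0.0893). Without DA replicate 1 it did, at -0.36 (edgeR adjusted p = 0.0424).

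P2ry14 sits in a cluster of related receptor genes with P2ry13, a receptor for ADP, and P2ry12, the ADP receptor of platelets and microglia. P2ry13 had 41, 49 and 42 counts with Pam3CSK4 and 31, 38 and 30 with DA, and was called lower (log2 fold change -0.51, edgeR adjusted p = 0.0282). P2ry12 had 12 to 17 counts with Pam3CSK4 and 5 to 14 with DA and was not called (edgeR adjusted p = 0.315). Outside the cluster P2ry1, another ADP receptor gene, had 33, 21 and 22 counts with Pam3CSK4 and 44, 37 and 41 with DA and was called higher (log2 fold change 0.59, edgeR adjusted p = 0.0306). The calls of P2ry1 and P2ry13 rest on few reads, and each was lost under 6 of the 12 alternatives that tested it. P2ry4 and P2ry10, each listed in all 6 libraries, were removed by the filter, and P2ry10b was listed in no library.

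Adora2a and Adora2b encode the high-affinity and the low-affinity adenosine receptor that raise cyclic AMP through the G protein subunit Gs. Adora2a lies on chromosome 10 (chr10:75316877-75334784) and Adora2b on chromosome 11 (chr11:62248984-62266453), both on the plus strand. Adora2a had 44.0, 42.2 and 46.8 FPKM with Pam3CSK4 and 7.69, 9.16 and 7.86 FPKM with DA. The groups lay far apart and did not overlap, and within each group the libraries stood close together.

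On the CPM scale Adora2a went from 119.9 ± 7.12 to 20.9 ± 1.90 (SD, n = 3). The log2 fold change was -2.52 (SE 0.074, edgeR adjusted p = 2.09e-12). This is a 5.73-fold fall with a 95% interval from 5.13 to 6.40. Of the 12390 genes tested, 106 had a lower log2 fold change. In bulk RNA fewer cells with the transcript and less transcript per cell cannot be told apart.

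Adora2b had 40.7, 42.1 and 42.2 FPKM with Pam3CSK4 and 43.7, 44.9 and 43.2 FPKM with DA. As for P2rx4, the groups separated on the FPKM scale, DA being higher, and overlapped in CPM (79.2 ± 2.12 and 78.6 ± 0.893, SD, n = 3). The fold of DA over Pam3CSK4 was 0.992 with a 95% interval from 0.916 to 1.07 (edgeR adjusted p = 0.855). The direction turned to higher under upper-quartile factors (log2 fold change 0.10, edgeR adjusted p = 0.111) and on the FPKM scale.

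The Adora2b to Adora2a ratio of FPKM was 0.924, 0.996 and 0.902 with Pam3CSK4 and 5.68, 4.90 and 5.50 with DA, so the 2 transcripts were about equal without DA and Adora2b was in excess with it. The difference in log2 ratio was 2.51 (two-sided exact permutation p = 0.1, the smallest possible, adjusted p = 0.15 over 3 ratios).

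Another adenosine receptor gene, Adora3, encodes the A3 receptor, which couples to the inhibitory protein Gi. It had 89.3, 90.5 and 64.9 expected counts with Pam3CSK4 and 235.3, 210.2 and 248.7 with DA, and the groups did not overlap. It was called higher, with a log2 fold change of 1.41 (SE 0.127, edgeR adjusted p = 2.49e-07). GENCODE places Tmigd3 on the same strand as Adora3 (chr3:105870858-105908926) and over most of it, so reads may be divided between them. The summed counts of Adora3 and Tmigd3 were 91.3, 96.4 and 87.1 with Pam3CSK4 and 237.3, 242.3 and 249.7 with DA. Adora3 is also known from mast cells. The 5 mast cell and basophil markers summed to 1.39 to 1.69 CPM with Pam3CSK4 and 0.540 to 0.818 CPM with DA. Of these, Cpa3, Tpsb2 and Fcer1a were at 0 in all 6 libraries, Mcpt8 was listed in 2, and Kit, the one tested, had 29, 35 and 31 counts with Pam3CSK4 and 18, 11 and 14 with DA and was called lower (edgeR adjusted p = 5.94e-04). The part of mast cells in the rise of Adora3 was not tested. Adora1 was listed in no library.

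Over the 3 adenosine receptor genes the summed FPKM came to 87.6 ± 2.29 without DA and to 56.7 ± 1.27 after it (SD, n = 3). The share of Adora2a in that sum was 50.6% ± 1.41 and 14.5% ± 1.08, that of Adora2b 47.6% ± 1.15 and 77.5% ± 0.455, and that of Adora3 1.84% ± 0.366 and 8.01% ± 0.815 in the 2 groups (SD, n = 3).

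**Figure D2:**
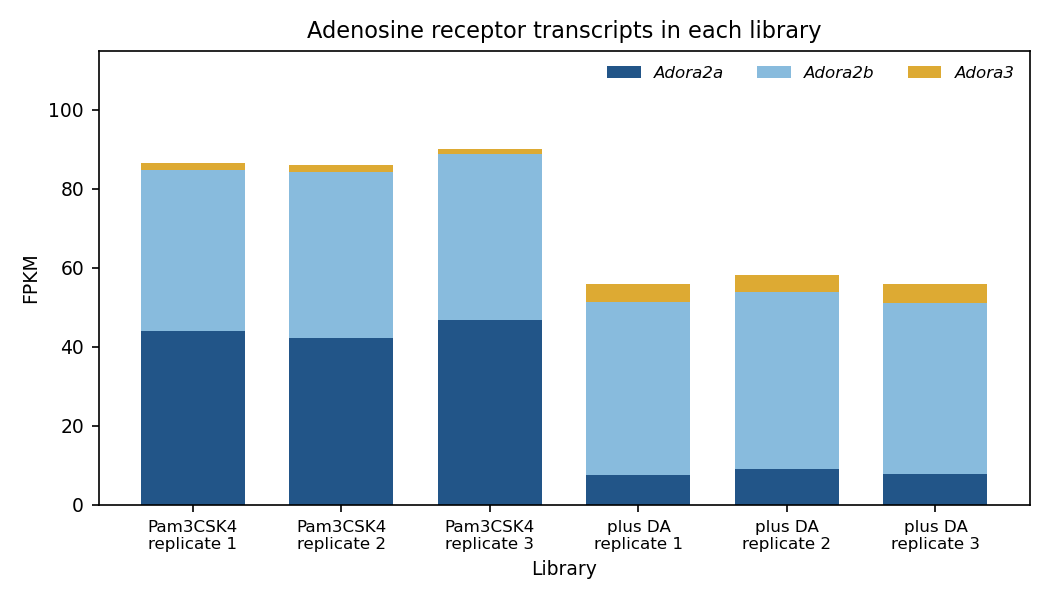
Stacked FPKM of Adora2a, Adora2b and Adora3 in each of the 6 libraries (y axis from 0). The summed height is 86.1 to 90.2 in the Pam3CSK4 libraries and 55.9 to 58.2 in the DA libraries, and the Adora2b part is similar in all 6.

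Entpd1 encodes CD39, the surface enzyme that starts the breakdown of extracellular ATP. The gene spans 129.2 kb on the plus strand of chromosome 19 (chr19:40612366-40741602). The 250 bases before its 2 RefSeq starts, at chr19:40612116-40612365 and chr19:40659520-40659769 (GRCm38.p6, plus strand), are shown because Entpd1 was the member that rose. Neither stretch holds a match to the motifs searched, and the gene-level counts do not say which start was used.
Entpd1 first start: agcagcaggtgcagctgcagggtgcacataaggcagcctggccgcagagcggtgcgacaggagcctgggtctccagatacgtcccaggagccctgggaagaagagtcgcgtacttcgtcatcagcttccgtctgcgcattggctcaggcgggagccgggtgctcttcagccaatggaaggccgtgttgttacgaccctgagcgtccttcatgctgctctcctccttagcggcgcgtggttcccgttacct
Entpd1 second start: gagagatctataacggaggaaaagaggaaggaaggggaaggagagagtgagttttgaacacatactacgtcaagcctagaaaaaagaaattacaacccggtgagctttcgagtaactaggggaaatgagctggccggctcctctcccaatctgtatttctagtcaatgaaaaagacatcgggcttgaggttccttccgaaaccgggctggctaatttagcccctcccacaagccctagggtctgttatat

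Entpd1 had 5.77, 6.33 and 5.36 FPKM with Pam3CSK4 and 10.9, 10.4 and 10.6 FPKM with DA. All 3 DA libraries lay above all 3 Pam3CSK4 libraries, and they lay closer together. In CPM it went from 25.6 ± 1.99 to 44.0 ± 1.13 (SD, n = 3). The log2 fold change was 0.78 (SE 0.069, edgeR adjusted p = 2.04e-07), a 1.72-fold rise with a 95% interval from 1.55 to 1.90. Entpd1 is also known from B cells, whose 5 markers summed to 0.721 to 1.06 CPM with Pam3CSK4 and 0.590 to 0.765 CPM with DA, with Pax5 at 0 in all libraries. Among the larger marker sums, given below, those of neutrophils and of megakaryocytes and platelets rose with DA. Those of macrophages and of fibroblasts and endothelial cells fell. The neutrophil sum rose through S100a8 (mean 63.5 CPM with Pam3CSK4 and 406.3 CPM with DA). Of the 7 neutrophil markers tested it was the 1 called higher, and 2, Ngp and Camp, were called lower. The megakaryocyte and platelet sum rose mostly through Pf4. The part of any of these cells in the rise of Entpd1 was not tested.

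**Figure D3:**
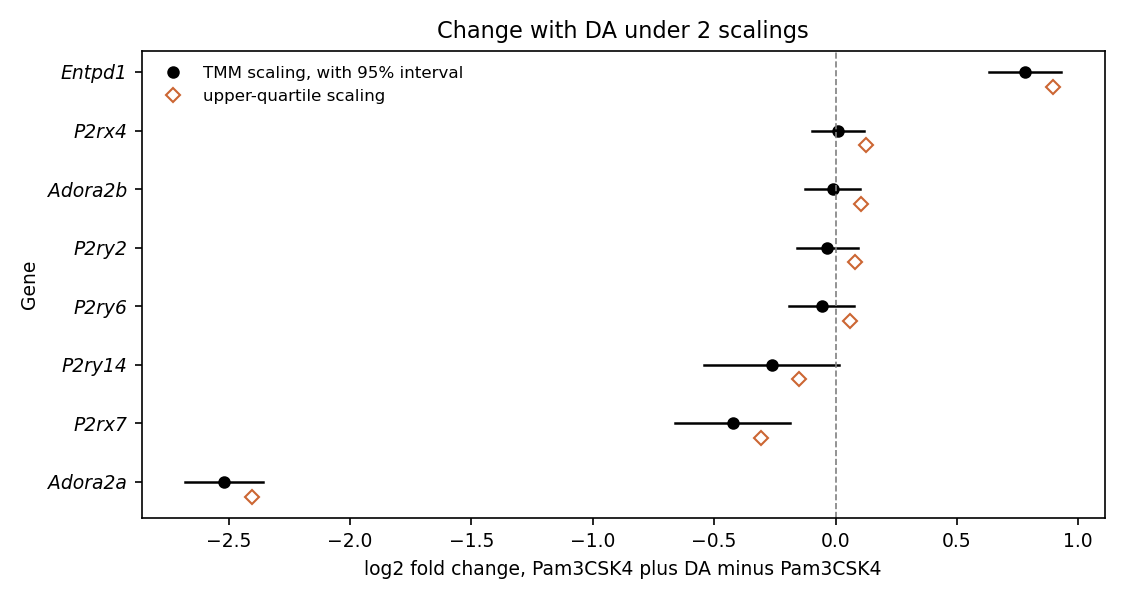
Log2 fold change of each member, DA with Pam3CSK4 minus Pam3CSK4 alone, with TMM scaling (filled circles, bars for the 95% interval) and upper-quartile scaling (open diamonds). Upper-quartile factors shift every member to the right, Adora2a to -2.40 and Entpd1 to 0.90, while P2rx4 lies above 0 with both, and P2ry2, P2ry6 and Adora2b change side.

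Promoter windows of RefSeq, from 250 bases before to 50 after a start, were found for 6 of the 8 members (12 windows, some overlapping, of P2rx4, P2rx7, P2ry2, P2ry14, Adora2b and Entpd1). They were searched on both strands for TGACGTCA (CREB), TGANTCA (AP-1), TGACNNNGC (NRF2 with small MAF) and an NF-kB motif. AP-1 letters were in 3 windows, 2 of P2ry14 and 1 of P2rx7, where 7.81% of all 32851 windows held them. The NRF2 letters were in 2 windows, shown in capitals for P2rx7 and P2rx4 above, where 12.4% of all windows held them. The matches did not overlap each other. CREB letters (1.79% of all windows) and NF-kB letters (0.411%) were in none of the 12. These matches describe letters and not binding.

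The share of genes called around the members was near that over all genes tested. Of 46 annotated genes within 100 kb of a member, members included where they neighbour each other, 22 were tested, 6 were called higher and 9 lower, beside 32.6% and 31.8% of all genes tested. Adora2a is flanked by Specc1l, a cytoskeletal gene 4.13 kb away that fell far less (log2 fold change -0.51, edgeR adjusted p = 1.15e-05), and by Gucd1, which rose (0.40, edgeR adjusted p = 3.85e-04). Camkk2, a calcium- and calmodulin-dependent kinase gene 1.43 kb from P2rx4 on the other strand, fell from 168.8 to 109.6 CPM (log2 fold change -0.62, edgeR adjusted p = 2.37e-07). Entpd1 starts 0.133 kb from Tctn3, a ciliary gene on the other strand, which rose from 2.24 to 4.44 CPM (log2 fold change 0.98, edgeR adjusted p = 1.45e-04). The library kit's strandedness is not given in the sources used here. Aldh18a1, a proline synthesis gene 23.9 kb from Entpd1, rose as well (0.82). Near Adora2b, Ncor1, a corepressor gene, fell (-0.79), and Zswim7 (0.43) and Specc1 (0.19) rose. Between 5.52 and 80 kb from P2ry6 or P2ry2, Arhgef17 (-0.68) and Fchsd2 (-1.59) fell and Relt (0.56) rose, while Fam168a fell (-0.41) 96.0 kb from P2ry6. Ccnj fell (-0.76) 89.7 kb from Entpd1.

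Beyond the members, 53 genes of the purinergic pathway were followed in 7 lists. Of these, 10 of the 35 tested were called higher and 14 lower, beside 32.6% and 31.8% of all genes tested. Of 8 tested enzyme genes for nucleotide breakdown outside the cell or in its membrane compartments, 5 were called higher (32.6% of all genes tested were). Entpd1 was one of these 5, and the median log2 fold change of the 8 was 0.44. Entpd5 rose from 7.69 ± 0.243 to 11.95 ± 0.367 CPM and Entpd7 from 21.3 ± 1.10 to 27.7 ± 0.392 CPM (SD, n = 3), with edgeR adjusted p = 1.69e-05 and 2.18e-04. Entpd4 (1.33-fold) and Entpd6 (1.49-fold), named after their values were seen, completed the 5. The products of Entpd4, Entpd5, Entpd6 and Entpd7 act mainly inside the cell, in the Golgi, endoplasmic reticulum or other vesicles. Among the 5, Entpd1 is thus the one for an enzyme of the cell surface. Enpp1 (log2 fold change -0.19, edgeR adjusted p = 0.139) and Acpp (-0.10, edgeR adjusted p = 0.335), named after their values were seen, were not called. Acpp stood at 27.7 CPM with Pam3CSK4 and 25.9 CPM with DA. Entpd4 has a near-identical copy, Entpd4b, on the same chromosome, so its value is uncertain. Nt5e, the CD73 gene, named after its values were seen, was at 0.370 ± 0.305 CPM with Pam3CSK4 and 0.514 ± 0.107 CPM with DA (SD, n = 3) and was not called (log2 fold change 0.46, edgeR adjusted p = 0.404). Its counts were 4, 15 and 4 with Pam3CSK4 and 10, 10 and 14 with DA. Without Pam3CSK4 replicate 2, its highest library, it was called higher at a log2 fold change of 1.38 (edgeR adjusted p = 0.0259), which made 6 ectonucleotidase genes called higher.

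In the list of adenosine uptake and breakdown, which also holds Ahcy, whose product forms adenosine, 6 of 10 tested genes were called lower and 1 higher, with a median log2 fold change of -0.66 (31.8% of all genes tested were called lower). The purine nucleoside phosphorylase genes Pnp and Pnp2 fell, Pnp from 1213 ± 20.4 to 651.4 ± 20.1 CPM (edgeR adjusted p = 9.51e-10) and Pnp2 from 80.5 ± 2.82 to 18.2 ± 0.954 CPM (SD, n = 3, edgeR adjusted p = 2.74e-12). Their loci overlap and they are closely related, so the division of reads between them is uncertain. Slc28a2, which encodes a sodium-dependent nucleoside importer, fell from 372.5 ± 27.8 to 160.1 ± 8.84 CPM (SD, n = 3, edgeR adjusted p = 7.28e-10), and it too has a related gene beside it. Of the others called lower, named after their values were seen, Adk, the adenosine kinase gene, fell 2.79-fold, Slc29a1, an equilibrative nucleoside transporter gene, fell 1.68-fold, and Ahcy, whose product releases adenosine from S-adenosylhomocysteine in a reversible reaction, fell 1.48-fold. Slc29a3, a transporter gene of intracellular membranes, rose 1.44-fold (edgeR adjusted p = 2.03e-05).

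Of 5 tested genes for nucleotide release, 2 were called higher and 2 lower, against 32.6% and 31.8% of all genes tested. Panx1, encoding the pannexin channel through which ATP leaves cells, went from 21.1 ± 0.839 to 97.9 ± 8.17 CPM (SD, n = 3), a log2 fold change of 2.21 (edgeR adjusted p = 6.27e-12). Gja1, encoding connexin 43, went from 121.6 ± 6.17 to 342.8 ± 18.1 CPM (SD, n = 3), a 2.82-fold rise (edgeR adjusted p = 4.07e-11). Gja1 is also a gene of fibroblasts. The 6 fibroblast and endothelial markers, led by Col1a1, summed to 908.4 to 958.3 CPM with Pam3CSK4 and 803.9 to 878.4 CPM with DA. Of these 6, 2 were called lower and none was at 0. The part of fibroblasts in the rise of Gja1 was not tested. Ank, a gene for cellular pyrophosphate and ATP release, fell (-0.64, edgeR adjusted p = 8.72e-06), as did the volume-regulated anion channel gene Lrrc8a (-0.19, edgeR adjusted p = 0.021), whose call was lost under 7 of 15 alternatives.

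Of 8 tested G protein alpha subunit genes, 5 were called lower and 1 higher, with a median log2 fold change of -0.34, where 31.8% of all genes tested were called lower and 32.6% higher. Gnaq, whose product couples some P2Y receptors to phospholipase C, fell from 176.1 ± 7.52 to 49.7 ± 1.43 CPM (SD, n = 3). The log2 fold change of Gnaq was -1.83 (edgeR adjusted p = 3.36e-12). Its relative Gna11 rose 1.28-fold from a lower level, 12.2 ± 0.400 to 15.6 ± 0.621 CPM (SD, n = 3, edgeR adjusted p = 0.00113). Gna12 fell 1.91-fold and Gna15, a subunit of blood cells, fell 1.71-fold. Gnas, encoding Gs, named after its values were seen, was at 639.1 ± 43.1 CPM with Pam3CSK4 and 622.4 ± 47.2 CPM with DA (SD, n = 3) and was not called (log2 fold change -0.04, edgeR adjusted p = 0.624). Its direction turned under upper-quartile factors and on the FPKM scale.

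**Figure D4:**
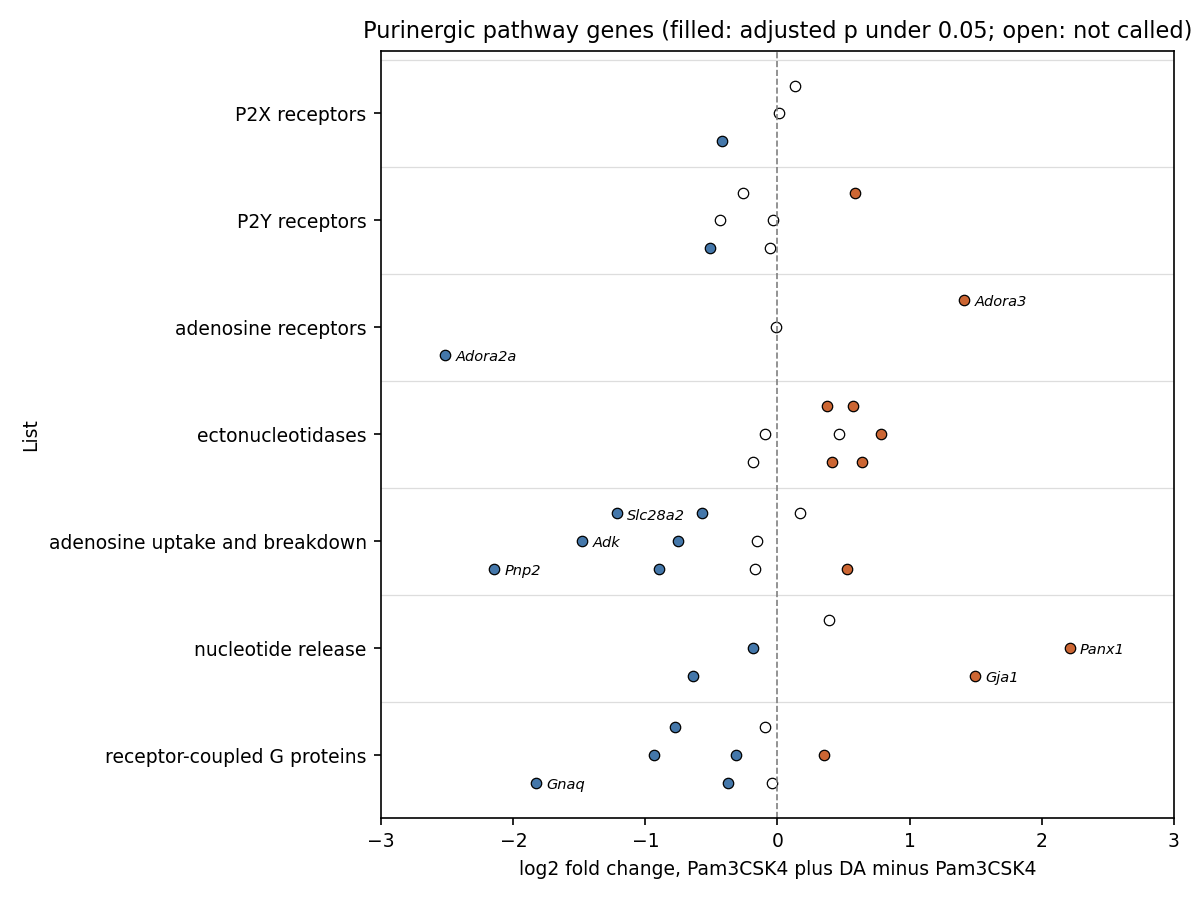
Log2 fold change of each tested gene of the 7 purinergic pathway lists, 1 point per gene, offset vertically only to separate points (filled: edgeR adjusted p under 0.05; open: not called). Genes with a log2 fold change of at least 1 in size are named, and the range runs from Adora2a at -2.52 to Panx1 at 2.21.

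The libraries held 21337932 to 21518425 expected counts each. Of the macrophage markers all 8 were tested, summing to 28040 to 28160 CPM with Pam3CSK4 and 21440 to 21810 CPM with DA, with 1 called higher and 5 lower. Lyz2 made most of that sum, with a mean of 17920 CPM with Pam3CSK4 and 13040 CPM with DA. Fcgr1 was the marker called higher (2.69-fold), and Cd14 and Cd68 were not called. The 8 neutrophil markers summed to 216.9 to 271.1 CPM with Pam3CSK4 and 576.0 to 599.4 CPM with DA, 1 of the 7 tested being higher (S100a8, log2 fold change 2.68) and 2 lower. The 5 megakaryocyte and platelet markers summed to 238.6 to 294.3 CPM and 359.6 to 426.9 CPM, 2 of 4 tested higher, mostly from Pf4. T and NK cell, dendritic cell and mast cell lists summed to at most 5.32 CPM in any library, with Cd3g and Trac at 0. The part of these marker shifts in the members' changes was not tested.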

How the data were processed

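Gene expression was measured in 3 Pam3CSK4 and 3 Pam3CSK4 plus DA libraries on a BGISEQ-500, and groups were taken from the sample titles. The source field spells the ligand of the DA libraries with other final digits, and the titles were followed. The series title gives DA as dopamine. Per the file headers, the deposited expected counts are the authors' estimates of the reads of each gene, not normalized, and the deposited FPKM values were scaled by the authors by transcript length and library. A deposited transcript length in bases, averaged over isoforms, stands beside them. Bowtie2 2.2.5 and build GRCm38.p5 are named in the submitters' processing notes, and the quantifier is not given in the sources used here. Among listed genes the lowest FPKM in each file was 0.01, and unlisted genes were taken as 0. An isoform estimate can move FPKM, and counting error alone limits genes with few reads.

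Expected counts were rounded, filtered with filterByExpr (5561 genes removed), scaled with TMM factors and tested with edgeR 4.0.16 (R 4.3.3) by its quasi-likelihood test, two-sided, with no replicate block, and Benjamini-Hochberg adjustment over 12390 genes at 0.05. The SE is the log2 fold change divided by the square root of the F statistic, and 95% intervals use its degrees of freedom. The script was tested on simulated data. Ratios of 2 genes in a library were compared by exact permutation (scipy 1.17.1). The members and lists were chosen with earlier results of these data known. All 8 members and all listed receptors were named whatever their result, with up to 3 rising and 3 falling genes of each other list by adjusted p and the neighbours called within 100 kb; others are said to be named after their values were seen. Same-group libraries differed by more than sampling noise (chi-square per degree of freedom 3.32 to 9.63). Alternatives were DESeq2 size factors, upper-quartile factors, DESeq2 1.42.0, limma 3.58.1 on log2(FPKM + 1) or log2(FPKM + 0.1) keeping genes that reached an FPKM of 1 in 3 libraries, or keeping all, no count filter, a mean count of at least 50, a fit with a replicate block, and fits that omit 1 library.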

Additional observations from a re-analysis of the deposited data

How the results depend on the processing

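Adora2a, P2rx7 and Entpd1 kept their direction and their call under all 15 alternatives, with log2 fold changes from -2.60 to -2.30, from -0.49 to -0.31 and from 0.73 to 0.90. The members near 0 turned with the scaling. The P2rx4 log2 fold change was -0.0033 with DESeq2 size factors, -0.0078 with DESeq2's test and -0.020 with no count filter, and 0.13 with upper-quartile factors, where it was called. With upper-quartile factors P2ry2, P2ry6 and Adora2b stood at 0.080, 0.058 and 0.10. With limma on log2(FPKM + 1), filtered or not, they stood at 0.055, 0.031 and 0.075, and on log2(FPKM + 0.1) at 0.056, 0.032 and 0.077. Adora2b was at 0.0078 with a mean count of at least 50. Gnas was at 0.075 with upper-quartile factors, 0.074 with limma on log2(FPKM + 1) and 0.074 on log2(FPKM + 0.1). The fits with DESeq2 size factors and with upper-quartile factors changed only the library scaling. Their medians over all genes tested were 0.0072 and 0.14, against 0.02 in the main fit. The cause of the turns under the other settings was not tested.

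Leaving out 1 library at a time gave ranges of -0.0095 to 0.030 for P2rx4, -0.36 to -0.17 for P2ry14, -0.037 to 0.0019 for Adora2b and -0.096 to 0.010 for Gnas. P2rx5 ranged from -0.061 to 0.38, and the log2 ratio of P2ry6 to P2ry2 from -0.057 to 0.017. Genes called ranged from 3674 to 3900 higher and from 3591 to 3835 lower.

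Counts of called genes moved in small lists. P2X genes called higher were 0 by edgeR, also at an unadjusted p under 0.05 and with DESeq2, and 1 with upper-quartile factors and with unfiltered limma. P2Y genes called higher were 0 with DESeq2's test and with no count filter, and 0 to 1 with a library left out. P2Y genes called lower were 0 with upper-quartile factors, DESeq2's test and unfiltered limma, and 0 to 1 with a library left out. Filtered limma at either pseudocount and a mean count of at least 50 also gave 0 in both directions. These filters removed P2ry1 and P2ry13, so their calls were not tested there. With a library left out, ectonucleotidase genes called lower were 0 to 1 and those called higher 5 to 6. Uptake and breakdown genes called higher were 2 with upper-quartile factors, filtered limma and the replicate block, and 1 to 2 with a library left out. Nucleotide release genes called lower were 1 with upper-quartile factors and limma, and 1 to 2 with a library left out, and those called higher 2 to 3. Limma on log2(FPKM + 1) called 4229 genes higher and 2858 lower, on log2(FPKM + 0.1) 4222 and 2850, and without a filter 4713 and 3091.

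With the replicate block 4223 genes were called higher and 4111 lower, and no member's call changed. Deviations of same-numbered libraries correlated at 0.249, 0.0361 and 0.0748 across genes. Of the pairs with different numbers, Pam3CSK4 replicate 3 with DA replicate 2 stood at 0.155 and the others between -0.237 and -0.00386. The labels give no pairing, so the numbers were not taken as pairs, and these correlations do not settle whether the libraries were paired. Few reads limit P2ry14, P2ry1, P2ry12, P2ry13, P2rx5 and Nt5e.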
